A study of Mus musculus with 3 samples.

Results

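Cultured spleen cells that had received urine of autoimmune MRL/MpJ-Faslpr/lpr mice (called lpr urine below) were compared with spleen cells that had received urine of the parent strain MRL/MpJ (parent-strain urine). The comparison used the 2 arrays labelled with those treatments, 1 for each urine, of the 3 arrays in the series. The third array, of cells given PBS, was not part of the comparison, and its intensities are given beside those of the urine arrays only to show the level without urine. The responding cells were the same kind on all 3 arrays, taken from the spleen of MRL/MpJ males aged 6 months, so Fas was intact in the cells and the strains differed only as urine donors. Urine came from male donors of each strain, also aged 6 months, with samples from 6 animals pooled per strain, and was cleared by spinning and by a filter with 0.22 µm pores. Cells were kept in 500 µL of medium per well, and contact lasted 3 h. The growth protocol describes the spleen of a single mouse, and the labels do not say that the wells came from separate animals. With 1 array per urine there was no replicate check, and every difference below is a difference between 2 wells and 2 pools of urine, with no p-value.

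The lpr allele disrupts Fas, the death receptor through which activated lymphocytes are removed, and MRL/MpJ mice that carry it develop swollen lymphoid organs, autoantibodies and a lupus-like kidney disease earlier and more severely than the parent strain. Diseased kidneys leak protein into urine, and urine can carry cytokines, immunoglobulin, metabolites and cell debris. Spleen cells, a mixture of B cells, T cells, macrophages, dendritic cells and neutrophils, sense such material through Toll-like and cytokine receptors, and answer within hours with immediate early transcription factors, chemokines and interleukin genes.

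Both urine arrays were close in overall brightness, with a 75th percentile of 86.6 intensity units for MRL/MpJ urine and 75.7 for lpr urine, against 157.5 for PBS. Between 55.3% and 59.0% of probes were well above background on each array and no probe was saturated. A gene's level was the log2 of its processed intensity minus the array's 75th percentile, and a difference was the level with lpr urine minus the level with MRL/MpJ urine, so that positive values were higher with lpr urine. Intensities are printed before scaling, so a gene at the same level on both urine arrays reads lower with lpr urine in the proportion of 75.7 to 86.6, and higher with PBS in the proportion of 157.5 to 86.6. Of 36590 genes on the array, 20006 were well above background on both urine arrays and entered the comparison. In a mixture of cells, fewer cells of a type and less RNA per cell cannot be told apart.

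The urines of both strains left spleen cells with nearly the same expression profile. Levels correlated across genes at r = 0.996 between the urine arrays, a description over genes that are not independent replicates, and 94.7% of genes differed by less than 0.5 on the log2 scale. The SD of the differences over genes measured on all 3 arrays was 0.24 between the urines and 1.14 between MRL/MpJ urine and PBS. At least 2-fold apart were 80 of the 20006 genes (0.400%), of which 68 (0.340%) were higher and 12 (0.0600%) lower with lpr urine. At 1.5-fold, 673 genes were apart (3.36%), of which 466 (2.33%) were higher and 207 (1.03%) lower. Scaling by the E1A spike-in RNA, added to each sample for labelling, shifted the median of all genes by -0.11 and changed the 2-fold split from 85.0% higher to 54.3% higher, with 38 genes higher and 32 lower. Loess and normexp settings gave 74.0% and 66.7% higher. Directions below refer to the percentile scaling unless the spike-in value is given.

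Spots of the same probe repeated within an array gave the noise scale. The SD that spot noise alone gives to a difference was 0.26 below a log2 intensity of 5, 0.12 between 5 and 8, 0.096 between 8 and 11 and 0.051 above 11. The SD of the differences over genes in the same ranges was 0.34, 0.22, 0.19 and 0.12. The spots came from 14, 8, 15 and 259 probes in these ranges, so that below 11, where all 80 calls lay, the scale rests on few probes. This scale covers spot noise within an array, and not noise between wells, labelling reactions or arrays. Most calls lay where it was widest, since 51 of the 68 higher genes and 8 of the 12 lower genes had a mean log2 intensity below 5. Of all 80, 35 differed by more than 5 times the repeated-spot SD at their level.

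**Figure D1:**
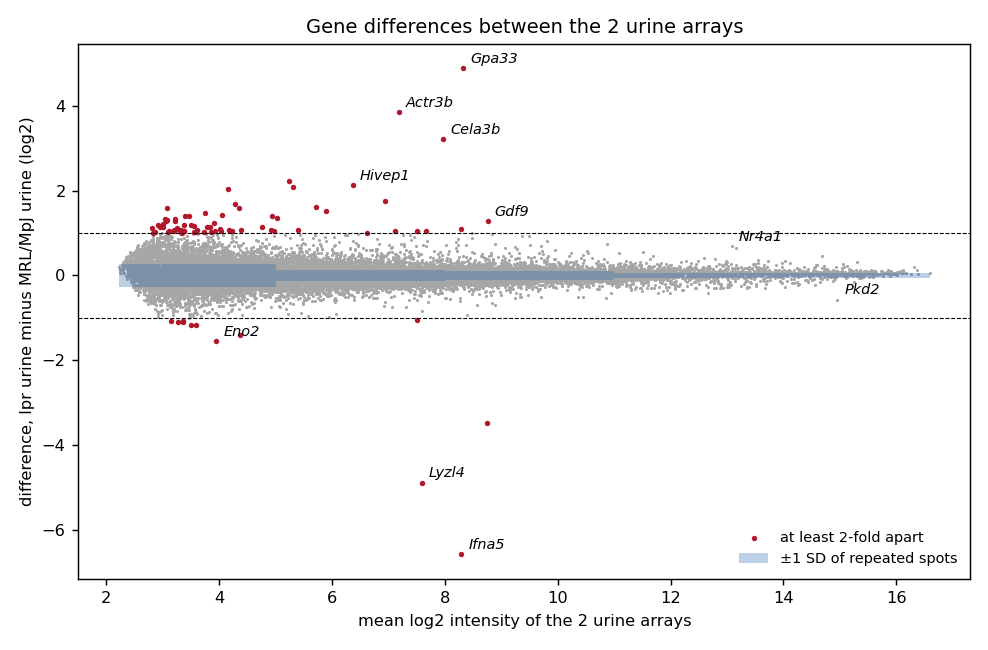
Difference between the urine arrays (vertical axis, log2, lpr urine minus MRL/MpJ urine) against mean log2 intensity (horizontal axis) for 20006 genes, 1 point each; red points are the 80 genes at least 2-fold apart (dashed lines) and the blue band is ±1 SD of a difference from repeated spots. The cloud narrows from left to right, and a few bright genes such as Gpa33 (4.88) and Ifna5 (-6.58) lie far outside it.

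Genes of acute inflammation read higher with lpr urine in small number and by less than 2-fold for most. Interleukin 1 beta, the secreted product of inflammasome-activated phagocytes, was the clearest. Il1b read 1378 with PBS, 541 with parent-strain urine and 903 with lpr urine. Its difference was 0.93, or 1.91-fold and 9.68 times the repeated-spot SD, and its 3 measured probes differed by 0.93, 1.02 and 0.21. The 2 probes nearest the end of the gene thus moved together, whereas the dimmer remaining one, at 23.8 and 24.1 intensity units, did not. Relative to each array's 75th percentile the log2 level of Il1b was 3.13 with PBS, 2.64 with parent-strain urine and 3.58 with lpr urine, so whether lpr urine or PBS was highest depends on the scaling, and parent-strain urine was lowest either way.

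Cxcl2, a chemokine that draws neutrophils, read 94.9 with PBS, 235 with parent-strain urine and 369.9 with lpr urine, a difference of 0.85 and 8.81 times the spot SD. Cxcl1, its close relative, was far dimmer at 22.3 with PBS, 10.6 with parent-strain urine and 17.3 with lpr urine, and its difference of 0.90 was only 3.46 times the wider spot SD at that level. Ptgs2, the inducible cyclooxygenase that makes prostaglandin precursors, read 36.4 with PBS, 56.1 with parent-strain urine and 94.1 with lpr urine and differed by 0.94. These 3 genes did not share an order across the arrays, because Cxcl2 and Ptgs2 were lowest with PBS, before and after scaling, while Cxcl1 was lowest with parent-strain urine.

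Nlrp3, the sensor of the inflammasome that matures interleukin 1 beta, read 16.8 with PBS, 8.64 with parent-strain urine and 15.4 with lpr urine. Its difference of 1.03 passed 2-fold, but at 3.94 times the spot SD and from a single dim probe. Of the 14 measured inflammasome genes, Nlrp3 and Il1b alone passed 1.5-fold upward, against 2.33% of all genes, and none downward, against 1.03%. The list's median was -0.02, against 0.01 over all genes. The other components lay between -0.37 and 0.31, with Casp1, the protease that cleaves the cytokine, at -0.07, Naip2 at -0.37 and Pycard, the adaptor, at 0.25.

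Other cytokine genes did not follow Il1b. Tnf read 398 with PBS, 583 with parent-strain urine and 447 with lpr urine and differed by -0.19. Among the 12 measured inflammatory cytokines, Il1b was the only one past 1.5-fold, with Lif at 0.48, Osm at 0.29 and Il12a at -0.26. Of 10 CXC chemokines, Cxcl1 and Cxcl2 were over 1.5-fold higher, and Cxcl9, an interferon-gamma target that recruits T cells, was over 1.5-fold lower (17.4 to 9.45 intensity units, -0.68, 2.62 times the spot SD). Among 9 CC chemokines none passed 1.5-fold. Of all genes, 2.33% were at least 1.5-fold higher and 1.03% lower. The macrophage chemokines Ccl3 and Ccl4 went opposite ways, at 0.48 and -0.39. Ccl3 read 3006 with PBS, 405 with parent-strain urine and 492 with lpr urine, and Ccl4 read 7097 with PBS, 200.2 with parent-strain urine and 134 with lpr urine.

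The list of phagocyte genes that respond to microbial products had 17 of 19 measured members above 0, where 51.5% of all genes were above 0, and a median of 0.19. Under spike-in scaling 12 of them were above 0, with a median of 0.08, where 5420 of all 20006 genes were above 0, with a median of -0.10. Besides Nlrp3, only Arg2, which breaks down arginine, passed 1.5-fold (14.8 to 21.3 intensity units, 0.72). Both were higher, against 2.33% of all genes past 1.5-fold upward. Cd14, a co-receptor for bacterial lipopolysaccharide, read 916 with PBS, 114 with parent-strain urine and 136 with lpr urine and differed by 0.45. The scavenger receptor gene Marco differed by 0.40, the lectin gene Clec4e by 0.29 and Lcn2, which sequesters bacterial iron carriers, by 0.19. Thbs1, thrombospondin 1, went the other way with both its probes, at -0.54 and -0.45. Acod1, which makes itaconate, read 2131 with PBS, 116 with parent-strain urine and 122 with lpr urine and differed by 0.27, so its level with either urine was far below that with PBS.

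Socs3, a feedback inhibitor of cytokine receptors, read 2917 with PBS, 1264 with parent-strain urine and 1654 with lpr urine and differed by 0.58, 6.04 times the spot SD. It was the highest of 20 STAT and SOCS genes, whose median was -0.04 and of which none passed 1.5-fold. Among 21 NF-kB subunits, inhibitors and targets, Ptgs2 alone passed 1.5-fold, upward, against 2.33% of all genes. Birc3, an apoptosis inhibitor, followed at 0.50, with its 4 probes between 0.39 and 0.83, and Tnfaip2 was at 0.38.

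Immediate early genes, which are switched on within minutes of stimulation, showed single members above the rest. Fos, a subunit of the AP-1 transcription factor, read 267 with PBS, 702 with parent-strain urine and 1082 with lpr urine, a difference of 0.82 and 8.47 times the spot SD. Nr4a1, an orphan nuclear receptor induced by antigen receptor and stress signals, was bright on every array, at 19135 with PBS, 7226 with parent-strain urine and 10131 with lpr urine. Its difference of 0.68 was 13.3 times the narrow spot SD at that level. Ier3, an early survival gene, read 184 with PBS, 247 with parent-strain urine and 339.6 with lpr urine and differed by 0.65. Those were the 3 of 32 measured members past 1.5-fold upward, against 2.33% of all genes, and none passed it downward, against 1.03%.

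The rest of the immediate early list lay on both sides of 0, with a median of 0.04 (-0.07 under spike-in scaling). Fosb was at 0.47, Dusp1 at 0.47 with its other probe at -0.02, Arc at 0.30 and Junb at 0.26. Jun was at -0.08, Egr1 at -0.02 and Ier2 at -0.05, whereas Egr3 was at -0.37 and Klf4 at -0.26. Fos and Nr4a1 differed in their order across the arrays: Fos was lowest with PBS and highest with lpr urine, and Nr4a1 was lowest with parent-strain urine, before and after scaling.

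**Figure D2:**
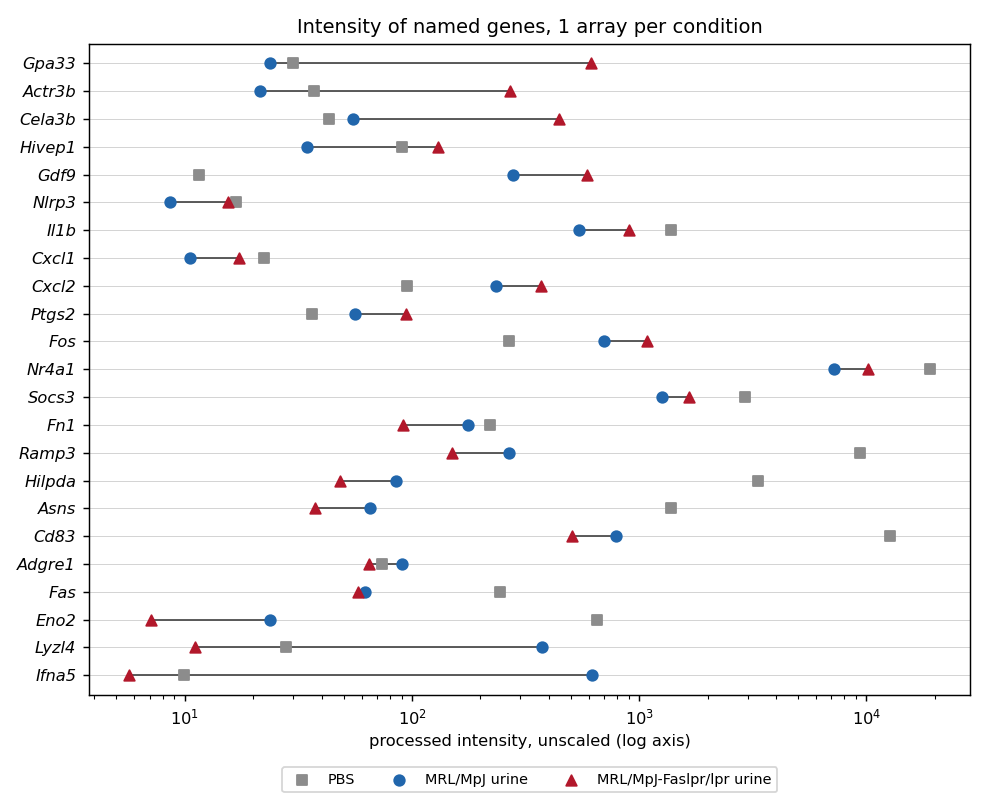
Processed intensity, unscaled and on a log axis, of 23 named genes on the 3 arrays (grey squares PBS, blue circles MRL/MpJ urine, red triangles lpr urine; 1 array each, no error). The line joins the 2 urine arrays; Gpa33, Actr3b and Cela3b, and in the other direction Lyzl4 and Ifna5, have lines far longer than those of Il1b (541 to 903) or Fos (702 to 1082).

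The sequence just upstream of these genes was read to show which regulatory letters they share, because they are known targets of NF-kB, AP-1 and CREB-type factors. The lines below give the 150 bases before the annotated start of each gene from RefSeq on GRCm38.p6, 5′ to 3′ on the gene's strand. Capitals mark matches on either strand to GGGNNNNNCC (a kappa-B-type motif), TGANTCA (AP-1), TGACGT (the core of a CREB site) and TATAAA, and overlapping matches run together.
Cxcl1 (chr5:90891095-90891244, plus strand): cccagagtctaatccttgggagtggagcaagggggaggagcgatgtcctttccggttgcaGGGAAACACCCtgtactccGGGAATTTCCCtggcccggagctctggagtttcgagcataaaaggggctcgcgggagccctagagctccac
Cxcl2 (chr5:90903749-90903898, plus strand): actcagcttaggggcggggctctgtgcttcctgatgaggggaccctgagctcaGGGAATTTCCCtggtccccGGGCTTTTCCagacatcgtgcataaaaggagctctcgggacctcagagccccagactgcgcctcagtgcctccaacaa
Il1b (chr2:129371140-129371289, minus strand): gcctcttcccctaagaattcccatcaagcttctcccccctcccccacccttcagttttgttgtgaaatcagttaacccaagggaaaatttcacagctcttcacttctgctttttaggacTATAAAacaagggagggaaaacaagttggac
Ptgs2 (chr1:150099881-150100030, plus strand): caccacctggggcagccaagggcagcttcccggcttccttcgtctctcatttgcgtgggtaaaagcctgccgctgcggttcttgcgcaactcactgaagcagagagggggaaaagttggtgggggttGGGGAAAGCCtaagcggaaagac
Fos (chr12:85473740-85473889, plus strand): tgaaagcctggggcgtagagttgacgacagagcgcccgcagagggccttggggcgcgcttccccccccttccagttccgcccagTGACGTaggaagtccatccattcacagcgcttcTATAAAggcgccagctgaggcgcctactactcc
Nr4a1 (chr15:101266696-101266845, plus strand): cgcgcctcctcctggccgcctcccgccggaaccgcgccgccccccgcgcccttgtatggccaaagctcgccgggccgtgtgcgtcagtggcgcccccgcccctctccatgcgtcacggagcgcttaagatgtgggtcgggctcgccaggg
Cxcl1 and Cxcl2 both held GGGAATTTCC, a motif present in 0.0609% of the 32851 promoter windows of the same length, and Cxcl1 held 4 overlapping or separate matches to GGGNNNNNCC against 3 in Cxcl2 and 1 in Ptgs2. GGGNNNNNCC is common, with a match in 35.4% of all windows. Il1b and Fos held TATAAA (7.57% of windows), and Fos held TGACGT (5.15%). None of the 6 held TGANTCA (4.24%), and Nr4a1 held none of the motifs in this window. A match is a description of letters and not of binding, and no motif was shared by all 6 genes.

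The largest differences upward came from single probes of genes best known from other tissues. Gpa33, a surface antigen of intestinal epithelium, read 29.8 with PBS, 23.8 with parent-strain urine and 613 with lpr urine (mm9 chromosome 1, 168096513 to 168096572). The lpr urine array alone was high, and the difference of 4.88 was 29.5-fold, or 50.6 times the spot SD. Cela3b, a pancreatic elastase, read 43.3 with PBS, 55.3 with parent-strain urine and 446 with lpr urine and differed by 3.21 (chromosome 4, 136977835 to 136977894). Both genes had 1 measured probe. Another Gpa33 probe (168082754 to 168082813) was not among the measured ones. It read 1.09 with PBS, 1.09 with parent-strain urine and 1.10 with lpr urine.

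Actr3b, which encodes a relative of the actin-nucleating protein ARP3, read 37.1 with PBS, 21.4 with parent-strain urine and 269 with lpr urine at its brightest probe (chromosome 5, 25356096 to 25356155), a difference of 3.85. The next probe along the same gene (25356185 to 25356244) read 8.95, 9.89 and 6.77 on the same arrays and differed by -0.35. The 2 probes thus disagreed in direction within a short stretch of sequence.

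Hivep1, a zinc-finger factor that binds kappa-B-type sites, read 90.1 with PBS, 34.4 with parent-strain urine and 131 with lpr urine and differed by 2.12, 17.1 times the spot SD. Gdf9, an oocyte growth factor of the TGF-beta family, read 11.6 with PBS, 278 with parent-strain urine and 587 with lpr urine. It was thus low with PBS and higher with both urines, with lpr urine 2.42-fold above MRL/MpJ urine (1.27). Tac2, the neurokinin B precursor, followed the same order at 0.946 with PBS, 71.5 with parent-strain urine and 126 with lpr urine, not well above background with PBS, and differed by 1.01. Across all 68 genes at least 2-fold higher, 36 were not well above background on the PBS array, as was 1 of the 12 lower genes, against 923 (4.61%) of all 20006 compared genes. Most of these 36, 30 of them, were among the 51 higher genes below a log2 intensity of 5, where the share over all compared genes was 12.2%.

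The rest of the 12 highest among named genes at or above the median level differed by less than 2-fold. Trim69, a RING-finger protein gene, was at 0.97 (64.7 to 111 intensity units), and Fam83d, a mitotic spindle gene, at 0.94 (57.2 to 96.2). Uty, the Y-linked relative of a histone demethylase, read 264 with PBS, 498 with parent-strain urine and 827 with lpr urine and differed by 0.93, with its other probe at 0.58. Spty2d1, a histone chaperone, went from 275 to 441 and differed by 0.87. Each of these 4 was higher with lpr urine than on the other arrays, PBS included.

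Downward, the extremes were again single probes. Ifna5, an interferon alpha gene, read 9.95 with PBS, 620.1 with parent-strain urine and 5.67 with lpr urine (mm9 chromosome 4, 88481935 to 88481994). Only the MRL/MpJ urine array was high, and the difference of -6.58 was 95.5-fold. Other interferon alpha genes did not share it, as Ifna9 differed by 0.26 and Ifna11 by -0.16, both below 13 intensity units on every array. Lyzl4, a lysozyme-like gene of sperm, read 27.9 with PBS, 374 with parent-strain urine and 11.05 with lpr urine and differed by -4.89. Lyzl4 too was high on that array alone.

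Scanned pixels within the extreme spots were more even in some cases and less even in others than in spots of the same brightness. The pixel SD of the Ifna5 spot on the MRL/MpJ urine array was 7.88% of its mean, against a median of 13.7% for spots as bright, and that of the Gpa33 spot on the lpr urine array was 15.5% against 13.8%. The Cela3b spot was less even than most, at 22.2% against 14.2%, as was the Lyzl4 spot on the MRL/MpJ urine array, at 19.8% against 14.5%. What set these spots apart was not tested.

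Below these extremes, Eno2, a glycolytic enolase, read 652 with PBS, 23.7 with parent-strain urine and 7.07 with lpr urine and differed by -1.55. Its high value was with PBS, and on the lpr urine array it lay close to the lowest intensity called well above background, 4.43. H2ac6, a histone H2A gene, went from 254 to 107 (-1.05) and Hoxaas2, a noncoding transcript of the Hoxa cluster, from 117 to 51.5 (-0.996). Topbp1, a replication checkpoint scaffold, differed by -0.93 at its brightest probe (459 to 211), but its 4 measured probes ran from -0.93 to -0.04.

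Usp3 and Gtf2b also disagreed between probes. Usp3, a deubiquitinase of histones, was at -0.69 and 0.06 on its extreme probes, and Gtf2b, the general transcription factor TFIIB, at -0.60 and 0.18. Pkd2, the polycystin 2 channel, had 1 measured probe, bright at 30462 with PBS, 39844 with parent-strain urine and 23386 with lpr urine. Its -0.57 was 11.2 times the spot SD at that level. The other Pkd2 probes were not among the measured ones. They read 0.91, 1.28 and 1.00 with parent-strain urine and 1.56, 1.14 and 1.00 with lpr urine. Mpo, myeloperoxidase of neutrophil granules, read 292 with PBS, 105 with parent-strain urine and 61.4 with lpr urine and was at -0.58 and -0.25 on its 2 probes.

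Genes read by several probes show how far separate stretches of a transcript gave the same value. Of the 8 called genes with several measured probes, 5 had all probes in the same direction and 1, the unnamed transcript 4932702P03Rik, had all past 2-fold, at 1.14 and 1.39. Ranked by the smaller difference, it stood above every gene with a gene name. Of the 673 genes at least 1.5-fold apart, 80 had several measured probes. All probes went the same direction in 51 of these 80 and all passed 1.5-fold in 18. Going up among named genes, Nim1k, a protein kinase gene, differed by 0.82 and 1.35 (7.63 with PBS, 161 with parent-strain urine and 248 with lpr urine at the brighter probe), and Ccdc62, a coiled-coil gene of testis, by 0.81 and 1.23. Ell2, an elongation factor that plasma cells use to make secreted antibody mRNA, read 136 with PBS, 127 with parent-strain urine and 184 with lpr urine and differed by 0.73 and 0.68. Impg2, Epb41l5, Adgrf2, Tmem116 and Selp (P-selectin) completed the 8 highest named genes, with their smaller probe differences between 0.64 and 0.78.

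Going down, Fn1, fibronectin, read 221 with PBS, 176 with parent-strain urine and 91.1 with lpr urine at the brighter probe and differed by -0.75 and -0.60. Ramp3, a partner of the calcitonin-like receptor, read 9360.3 with PBS, 266 with parent-strain urine and 150.4 with lpr urine and differed by -0.63 and -0.61, from probes that overlap in sequence and so are not independent. The overlapping probes of Papln, an extracellular matrix gene, were at -0.90 and -0.73. Rasd1, a Ras-like gene induced by dexamethasone, read 217 with PBS, 754 with parent-strain urine and 454 with lpr urine and was at -0.58 and -0.54. Ifi202b, an interferon-inducible gene of the p200 family, read 57.0 with PBS, 57.7 with parent-strain urine and 32.4 with lpr urine and was at -0.64 and -0.52, while H2bc6, Lrrc72 and Sh3yl1 made up the rest of the 8 lowest named genes.

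Fas and its ligand were close between the urines. Fas read 243 with PBS, 62.1 with parent-strain urine and 57.6 with lpr urine, a difference of 0.09 and 0.695 times the spot SD, which turned to -0.02 under spike-in scaling. Fasl, which T cells and NK cells display to kill Fas-bearing cells, read 192 with PBS, 78.8 with parent-strain urine and 79.7 with lpr urine and differed by 0.21. Of 16 measured genes of death receptor signalling none passed 1.5-fold at its brightest probe, and their median was 0.06 (-0.05 under spike-in scaling). The highest was Tnfrsf10b, the TRAIL receptor, at 0.34 on its brightest probe, with its dimmer probes at 0.51 and 1.02, and the lowest Tnfsf10, TRAIL itself, at -0.24.

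Interferon-stimulated genes, whose raised expression in blood marks lupus, were close between the urines. Of 27 measured type I interferon-stimulated genes none passed 1.5-fold in either direction, and the median was 0.04 (-0.07 under spike-in scaling). The lowest were Ifit3 at -0.55 (18.3 to 10.9 intensity units) and Mx2 at -0.46, at 2.09 and 1.76 times the spot SD. Ifng, the gene of interferon gamma, read 56.3 with PBS, 360.1 with parent-strain urine and 444 with lpr urine and differed by 0.50, 5.16 times the spot SD. The list of interferon-gamma-stimulated genes, in which Ifng itself was counted, had a median of -0.01 over 20 genes. The receptor chains Ifnar1 and Ifnar2 were at 0.03 and -0.05.

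Genes of B cell support and antigen presentation lay slightly below 0 as lists. For comparison, 9709 of all 20006 genes were below 0, with a median of 0.01. All 4 measured genes of the BAFF and APRIL system, which keeps B cells and plasma cells alive, were below 0, with Tnfsf13b (BAFF) at -0.33, Tnfrsf17 (BCMA) at -0.30, Tnfrsf13c (the BAFF receptor) at -0.18 and Tnfrsf13b (TACI) at -0.15. Tnfrsf13c read 5139 with PBS, 1082 with parent-strain urine and 837 with lpr urine, and Tnfsf13b was dim at 7.85 with PBS, 12.95 with parent-strain urine and 9.02 with lpr urine. The 12 MHC class II genes had a median of -0.07 with 9 below 0, led by their transactivator Ciita at -0.18 (2127 to 1644). None of these genes passed 1.5-fold. Under normexp 1 of the 4 BAFF and APRIL genes was above 0.

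Of 21 lymphocyte activation genes, 5 were above 0, against 10297 of all 20006 genes, and the median was -0.08. Ctla4, the inhibitory receptor of activated T cells, read 192 with PBS, 22.4 with parent-strain urine and 13.4 with lpr urine and differed by -0.55. Cd83, a marker of activated B cells and dendritic cells, read 12680.0 with PBS, 787 with parent-strain urine and 508 with lpr urine and differed by -0.44, 4.53 times the spot SD. Il2ra was at -0.29 and Pdcd1 at -0.25, while Cd69 and Cd86 were at -0.07 and -0.01. For Ctla4 and Cd83 the order was the same, highest with PBS and lowest with lpr urine.

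Among targets of hypoxia, and of the amino acid stress factor ATF4, 1 gene of each list passed 1.5-fold, in both cases downward. Of all genes, 1.03% passed it downward. Hilpda, a lipid droplet protein induced by hypoxia, read 3334 with PBS, 85.2 with parent-strain urine and 48.1 with lpr urine and differed by -0.63. Vegfa, the endothelial growth factor, read 234 with PBS, 520.4 with parent-strain urine and 326 with lpr urine and differed by -0.48 at its brightest probe, but its 4 probes ran from -0.48 to 0.48. Over 17 hypoxia targets 13 were below 0, against 9709 of all 20006 genes, with a median of -0.07 and Hilpda alone past 1.5-fold. Adm (adrenomedullin) was at -0.41 and Car9 at 0.38. Of 21 genes of glycolysis and glucose uptake, Eno2 alone passed 1.5-fold and the median was -0.05, with Hk2, a hexokinase, the highest at 0.49 (412 with PBS, 15.7 with parent-strain urine and 19.4 with lpr urine).

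Asns, asparagine synthetase, read 1375 with PBS, 65.6 with parent-strain urine and 37.6 with lpr urine and differed by -0.61. Trib3 was at -0.57 and Chac1 at -0.53, both targets of ATF4. Atf4 itself was at 0.28, and the list of 21 had a median of -0.04. Srxn1, an antioxidant target of NRF2, was dim and at -0.60 (14.3 to 8.28 intensity units), which turned to 0.05 under normexp, and Slc7a11, the cystine transporter, at -0.36. Heat shock genes had a median of 0.04 over 20 genes (-0.07 under spike-in scaling), with Hspa4 at 0.39 and Dnajb4 at -0.57. The measured Hspa4 probes ran from 0.31 to 0.39, and the 5 measured Dnajb4 probes from -0.57 to -0.03.

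Marker genes were read to see whether the mixture of cells matched between the wells and whether the labelled spleen cells were present. The spleen cell markers named next were well above background on all 3 arrays. Cd3e (T cells) read 4973 with PBS, 3304 with parent-strain urine and 2982 with lpr urine, a difference of 0.05. On the same scale of differences, Ncr1 (NK cells) was at -0.09, S100a9 (neutrophils) at 0.06, Itgax (dendritic cells) at -0.10 and Jchain (plasma cells) at -0.02. The signs of Cd3e and S100a9 turned under spike-in scaling and that of Ncr1 under normexp.

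Macrophage markers had a median below 0 under all 5 alternative scalings and corrections, with the spike-in value the lowest. Of 15 measured, 12 were below 0, against 9709 of all 20006 genes. The median was -0.20 (-0.31 under spike-in scaling), and none of the 15 markers passed 1.5-fold. Their intensities, before scaling, summed over the list to 17522 with PBS, 20731 with parent-strain urine and 16399 with lpr urine. Of the 16 markers, 1 was not well above background with either urine. Adgre1 (F4/80) read 73.7 with PBS, 90.6 with parent-strain urine and 65.0 with lpr urine and differed by -0.29, 2.31 times the spot SD. Lyz2, lysozyme, went from 6428 to 4593 (-0.29) and Itgam, the CD11b integrin, from 6535 to 4668 (-0.29). Csf1r was at -0.16 and 0.23 on its 2 probes, and Cd68 stood against the rest at 0.50, with its 3 probes between 0.15 and 0.50.

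Among all 20006 genes, 9709 were below 0 and 10297 above. Dendritic cell markers had 11 of 12 below 0 and a median of -0.11, with Clec9a at -0.36 and Cd209a at -0.33. B cell markers had 11 of 14 below 0 (median -0.04) and plasma cell markers 8 of 10 (median -0.08). T cell markers went the other way, with 13 of 16 above 0 and a median of 0.09, which turned to -0.02 under spike-in scaling. Ribosomal protein genes turned likewise, from 0.06 to -0.05. Neutrophil markers had a median of 0.08, which turned to -0.03. The part of these marker shifts in the results above was not tested.

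RNA that might have come with the urine was looked for with markers of its likely sources, and most were not measurable. Of 16 urothelial and kidney markers 6 were well above background on both urine arrays. Unscaled intensities summed over the list to 103 with parent-strain urine, 95.6 with lpr urine and 125 with PBS. The 75th percentile was 86.6, 75.7 and 157.5 on these arrays, so the larger PBS sum is not a higher level after scaling. Of 12 markers of male accessory glands and sperm 3 were measured, and of 12 major urinary protein and liver genes 6. Of these last 6, 4 were below 0 and 2 above, with a median of -0.12, against 0.01 over all genes. The lowest was Mup4, a major urinary protein, which read 11.1 with PBS, 42.3 with parent-strain urine and 28.7 with lpr urine (-0.37). Those above 0 were Serpina1a at 0.53 and Apoa1 at 0.52. Apoa1 read 1.04 with PBS, 19.5 with parent-strain urine and 24.5 with lpr urine. Slc34a1, the phosphate transporter of kidney tubules, read 5.33 with PBS, 20.9 with parent-strain urine and 12.8 with lpr urine and differed by -0.52, and Aqp2, the water channel of collecting ducts, was at 0.48.

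**Figure D3:**
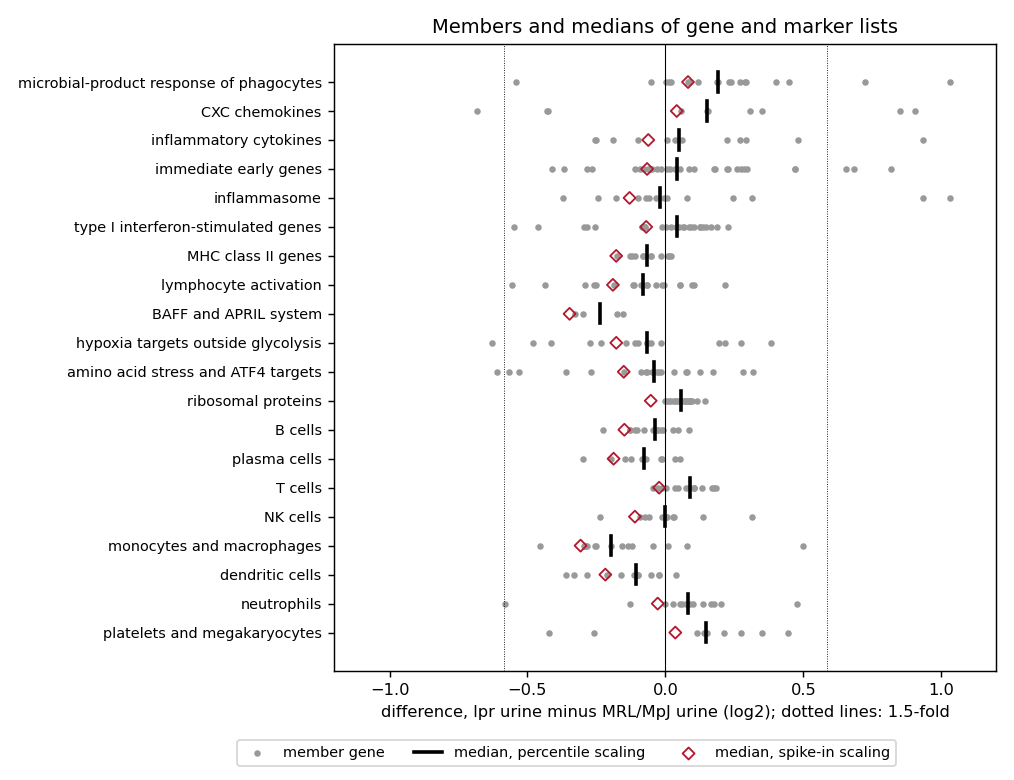
Difference between the urine arrays (log2, lpr urine minus MRL/MpJ urine) for each measured member (grey points) of 20 gene and marker lists, with the list's median under percentile scaling (black bar) and under spike-in scaling (red diamond); every measured member of these lists is drawn. Nearly all members lie between the dotted lines at 1.5-fold. The microbial-product (0.19 and 0.08), CXC chemokine (0.15 and 0.04) and platelet (0.15 and 0.04) medians stay above 0 under both scalings. The T cell, neutrophil, ribosomal, interferon-stimulated, cytokine and immediate early medians change sign. All other medians drawn, the macrophage median (-0.20 and -0.31) among them, are below 0 under both. Spike-in scaling lowers every difference by 0.11, so a median below 0 must stay below it.

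Probes for noncoding transcripts between genes held a larger share of the larger differences than other probes. Of 2119 such probes measured on both urine arrays, 16 (0.755%) were at least 2-fold higher with lpr urine, against 74 of 28487 other probes (0.260%), and 1 was lower (0.0472%). At 1.5-fold the shares were 4.77% and 2.01% higher, and 1.89% and 1.23% lower. Their median was 0.06, against 0.00 for other probes. No test was made of this difference, and neighbouring probes can read the same transcript. Signal level was not matched between the 2 kinds of probe, and dim genes also held larger shares. Among the 6003 genes below a log2 intensity of 5, 51 were at least 2-fold higher and 8 lower. At 1.5-fold, 358 of them were higher and 170 lower, and their median was 0.05. Whether the intergenic shares differ from those of other probes as dim was not tested.

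Described here are 2 places, chosen after their values were seen, which lay upstream of Bcl6 and between Homer1 and Jmy. The probe sequences that carried them are shown because the transcripts have no gene name, each as the 60 bases on the array, 5′ to 3′, with the mm9 position and strand in the array annotation.
chr16:23992396-23992455, plus strand: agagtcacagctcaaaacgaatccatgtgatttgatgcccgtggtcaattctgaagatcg
chr16:23994655-23994714, minus strand: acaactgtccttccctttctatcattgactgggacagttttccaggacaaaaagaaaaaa
chr16:23995160-23995219, plus strand: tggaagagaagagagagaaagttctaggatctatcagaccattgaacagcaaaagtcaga
chr13:94182575-94182634, plus strand: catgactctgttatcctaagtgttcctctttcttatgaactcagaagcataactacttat
chr13:94185575-94185634, plus strand: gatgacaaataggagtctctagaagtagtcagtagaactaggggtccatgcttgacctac
chr13:94189751-94189810, plus strand: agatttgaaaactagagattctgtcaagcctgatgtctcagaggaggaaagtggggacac
The first 3 belong to the place upstream of Bcl6, which encodes the repressor that directs germinal centre B cells, and the last 3 are those with the largest differences between Homer1 and Jmy.

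Upstream of Bcl6, the probe at 23992396 read 0.982 with PBS, 16.8 with parent-strain urine and 62.4 with lpr urine, a difference of 2.09. The probe at 23994655, on the opposite strand, read 3.68 with PBS, 14.8 with parent-strain urine and 60.6 with lpr urine, a difference of 2.23. The probe at 23995160 read 88.9 with PBS, 132 with parent-strain urine and 217 with lpr urine and differed by 0.91. In all 3 the reading was lowest with PBS and highest with lpr urine. Bcl6's own probes differed by 0.32 and 0.04, and at the brighter urine signal the gene read 342 with PBS, 1135 with parent-strain urine and 1021 with lpr urine.

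Between Homer1, a scaffold of glutamate receptors whose short form is an immediate early gene, and Jmy, a p53 cofactor that nucleates actin, all 15 measured intergenic probes were above 0. They spanned 94182575 to 94203922 on chromosome 13 (mm9), 8 on the plus and 7 on the minus strand, with differences from 0.33 to 1.60 and a median of 0.63, and 8 passed 1.5-fold. The largest, at 94185575, read 0.905 with PBS, 4.64 with parent-strain urine and 12.3 with lpr urine, and the brightest, at 94193255, read 61.7 with PBS, 452 with parent-strain urine and 614 with lpr urine and differed by 0.64. Among the 32 runs of at least 5 such probes with gaps of at most 20000 bases, this run had the highest median, and the next was 0.30.

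All 7 gene probes of this place were also above 0, with a median of 0.47, against 0.63 for the intergenic probes. Among them the Homer1 probes at 0.65 and 0.73 lay above the intergenic median. Homer1 differed by 0.26, 0.37, 0.65 and 0.73 from its first to its last measured probe along the gene, and the last read 63.7 with PBS, 68.7 with parent-strain urine and 99.7 with lpr urine. Jmy, transcribed toward it from the far side, differed by 0.47 and 0.54. Gm6109, a predicted gene whose probe lies within the Jmy stretch, was bright at 24955 with parent-strain urine and 22297 with lpr urine and differed by 0.03.

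**Figure D4:**
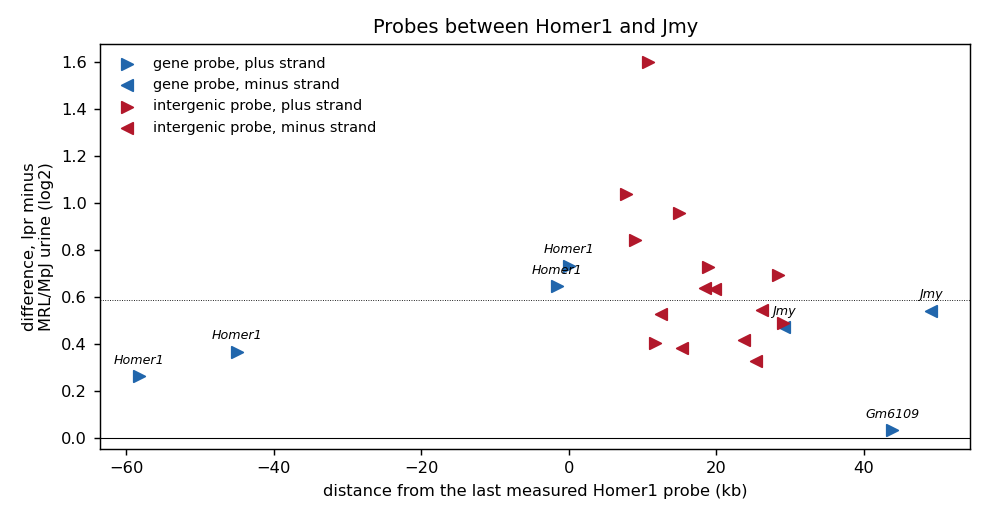
Difference between the urine arrays (log2, lpr urine minus MRL/MpJ urine) for each measured probe against its distance in kb from the last measured Homer1 probe; triangles point right for plus-strand and left for minus-strand probes, blue for gene probes and red for intergenic ones, and the dotted line is 1.5-fold. All 15 intergenic probes lie above 0, between 0.33 and 1.60, while Gm6109 lies at 0.03.

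Some genes were well above background on only 1 urine array and so have a lower bound in place of a difference. Bounds were made only for genes with a gene name. There were 205 of these with lpr urine, 25 of them with a bound of at least 2-fold. With MRL/MpJ urine there were 369, 18 of them with such a bound. Each bound sets the gene's level against the dimmest signal called well above background on the other array, or the gene's own if higher. Krt14, a keratin of basal epithelium, was at least 53.2-fold higher with lpr urine (1.34 with PBS, 3.64 with parent-strain urine, 207 with lpr urine). Lmod2, an actin-binding protein of heart muscle, was at least 12.4-fold higher, and Peg10, a retrotransposon-derived imprinted gene, at least 5.15-fold.

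The largest bound lay in the other direction. Gsg1, a germ cell gene, was at least 60.2-fold lower with lpr urine (1.46 with PBS, 305 with parent-strain urine, 3.64 with lpr urine). Slc22a26, an organic anion transporter, was at least 44.4-fold lower and Csn1s2a, a milk casein, at least 27.6-fold lower. Each rests on 1 array that read high.

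Probes spotted up to 10 times per array showed how small a difference could be resolved from spot noise. Of 117 such probes with a gene name, 24 had spot ranges on the urine arrays that did not overlap, 21 higher and 3 lower with lpr urine; the differences of all 117 lay between -0.30 and 0.42. The lowest was Ctsl, the lysosomal protease cathepsin L, at -0.30. Its spots spanned 0.66 to 0.90 with MRL/MpJ urine and 0.38 to 0.64 with lpr urine, on the scaled log2 level, so the ranges were apart. Pgam1, a glycolytic mutase, followed at -0.26 with ranges apart (2.85 to 2.99 and 2.52 to 2.79), whereas the ranges of Rab3a (-0.29) and Slc22a17 (-0.28) overlapped.

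At the other end, the ribosomal protein genes Rps6 and Rpl18 had repeated probes at 0.26 and 0.24, with ranges apart, and brighter probes at 0.09 and 0.18, also apart. Pcolce, a collagen-processing enhancer, was at 0.37 on a probe with ranges apart and 0.42 on a dimmer one whose ranges overlapped, and Rtn1 was at 0.24 with overlapping ranges. Since spike-in scaling lowers every difference by 0.11, the sign of the Rps6 value of 0.09 depends on the scaling.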

How the data were processed

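RNA of 3 cultures was labelled with Cy3 and hybridised to 1 array each of a 1-colour mouse design; probe positions are on mm9, per the file headers. The deposited intensity values are those of Agilent Feature Extraction 12.0.3.1, per the file headers: background-subtracted within each array and not normalized between arrays. From these, the log2 processed signal was taken relative to the 75th percentile of 56599 non-control probes on that array (pandas 2.3.3, numpy 2.4.6), after flagged outlier spots were left out and repeated spots averaged. A gene was read from its brightest probe well above background. With 1 array per urine no test was possible, so differences of at least 2-fold are counted and set against repeated spots of 288 measured probes. The number of arrays limits the precision.

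Symbols were updated through RefSeq (GRCm38.p6) for 26 probes. The genes named are the 12 highest and 12 lowest bright named genes, the 8 highest and 8 lowest among named genes read by several probes (unnamed transcripts were left out of this rank, a limit added to the rule), the 4 highest and 4 lowest repeated probes, the 3 largest bounds each way, up to 3 genes of each of 45 gene lists and 14 marker lists, Fas, Fasl and spleen cell markers; a few others named beside them stand for list members or were chosen after their values were seen. The members and lists were chosen with earlier results of these data known. Median, spike-in, quantile, loess and normexp (limma 3.58.1, offset 50) settings were tried. The calling step was tested on simulated data, which hold no noise between wells, labelling reactions or arrays and so say nothing about the calls made here. The intergenic runs, the 2 loci, the promoters printed and the spots whose pixels were examined were chosen after their values were seen. Some genes are not reported here.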

Additional observations from a re-analysis of the deposited data

How the results depend on the processing

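The comparison has 1 array per urine, so no library could be left out, and spot noise says nothing of noise between wells. The 68 higher and 12 lower genes became 62 and 16 with scaling by the array median, and 66 and 14 where all measured probes of a gene were averaged. They became 38 and 32 with the E1A spike-ins, 69 and 21 with quantile normalization, 54 and 19 with loess, and 6 and 3 with normexp, whose offset of 50 shrinks differences of dim genes by construction. Genes at or above the median level gave 11 and 4, a 1.5-fold threshold 466 and 207, and 2-fold beside 5 times the repeated-spot SD 29 and 6. Of 1230 recomputed differences of single genes, 984 moved by no more than the spot SD and 246 by more, and 27 changed sign, among which only Srxn1 under normexp had been past 1.5-fold. Of 410 recomputed list medians 67 changed sign, all of lists with a median within 0.15 of 0, and 23 of these came with the spike-ins. For the scalings the cause of the change in counts was not tested. No paired analysis was possible because each condition has 1 array and the shared replicate number names no pair.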

Other observations

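A few genes of other pathways also passed 1.5-fold. Cdkn1a, the cell cycle inhibitor p21, read 323 with PBS, 244 with parent-strain urine and 353 with lpr urine and differed by 0.73, with its 3 probes between -0.15 and 0.73. Tgif1, a repressor of TGF-beta signalling, read 4961 with PBS, 596 with parent-strain urine and 853 with lpr urine and differed by 0.71, and all 3 of its probes were at 0.42 or above. Skil, another repressor of that pathway, was at 0.52 and did not pass 1.5-fold. Ciart, a circadian repressor, was at 0.60 and 0.74 on its 2 probes. Mcpt8, a basophil protease, read 42.0 with PBS, 13.2 with parent-strain urine and 19.0 with lpr urine and differed by 0.72. Among histone genes, H2bc6 was at -0.96 and -0.62 on its 2 probes, while the list of 15 had a median of 0.03. Genes of DNA replication had a median of 0.00 over 23 and mitotic genes of -0.05 over 21, with none past 1.5-fold; the medians of these 3 lists changed sign in at least 1 of the alternative settings.

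Of the 80 genes at least 2-fold apart, 33 carried a gene name, 26 higher and 7 lower. The others were predicted genes and unnamed transcripts. Among the named ones, Gckr, the glucokinase regulator, read 7.48 with PBS, 9.89 with parent-strain urine and 23.3 with lpr urine and differed by 1.43, and Anln, an actin-binding protein of dividing cells, read 23.1 with PBS, 13.7 with parent-strain urine and 5.58 with lpr urine and differed by -1.10. Scube2 differed by 1.40, 1.199 and 0.17 at its 3 measured probes, and Efcab8 by 1.61 and 0.11 at its 2. These 4 genes were named after their values were seen.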
